A study of Mus musculus with 9 samples.

Results

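The 10 genes described here encode the receptor complex with which ON bipolar cells of the retina sense glutamate from photoreceptors. They were taken by name from a list (*Grm6*, *Nyx*, *Gpr179*, *Lrit3*, *Lrit1*, *Rgs7*, *Rgs11*, *Gnao1*, *Gng13* and *Pcp2*), and all 10 were among the 37725 genes of the single-cell RNA-seq matrix. The matrix held 31089 cells from the dissociated retinas of 9 mice, with both retinas of a mouse forming 1 sample. By the labels, all 9 mice carried floxed alleles of miR-204 and miR-211 together with RPE65-ERT2-Cre, a tamoxifen-dependent Cre recombinase active in the retinal pigment epithelium (RPE), and all were sampled 6 months after injections that started at postnatal day 28. The 4 control mice (S01 to S04) received corn oil only, and the 5 double-knockout mice (dKO, S05 to S09) received tamoxifen at 75 mg/kg in corn oil, so deletion and tamoxifen cannot be told apart. The imaging and electrophysiology of the same study used tamoxifen-treated mice without Cre as controls, which differs from the labels of these samples. Bipolar cells were thus not the cells targeted by the deletion. The levels of the miRs themselves were not analysed here.

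In darkness, photoreceptors release glutamate, which activates the receptor mGluR6 (encoded by *Grm6*) on the dendritic tips of rod bipolar and ON cone bipolar cells. The receptor acts through the G protein Go (*Gnao1*, with *Gnb3* and *Gng13*) to close the cation channel TRPM1, and light reopens the channel by lowering glutamate. OFF cone bipolar cells respond through ionotropic glutamate receptors instead. Loss of *Grm6*, *Nyx*, *Gpr179*, *Lrit3* or *Trpm1* causes congenital stationary night blindness, in which the ON pathway fails while the photoreceptors survive.

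Cells were typed by unique molecular identifiers (UMIs, each counting a captured mRNA molecule) of marker genes, none of them a member. This gave 915 rod bipolar, 1253 ON cone bipolar and 1559 OFF cone bipolar cells, with median depths of 15805, 14459 and 14279 UMIs per cell. A further 341 bipolar cells received no type. The cells were picked by these same markers, so the marker levels describe the gates and do not check the typing. All 5 rod bipolar markers were highest in rod bipolar cells, 4 of the 5 ON markers were highest in ON cone bipolar cells and 4 of the 5 OFF markers in OFF cone bipolar cells. The exceptions were *Isl1*, which both ON types share, and the OFF marker *Vsx1*, at 116 CPM (UMIs of a gene in the pooled cells, scaled to a total of 1000000 UMIs) in ON against 71.1 CPM in OFF cone bipolar cells. *Prkca* stood at 16966 CPM in rod bipolar cells against 402 in ON and 135 in OFF cone bipolar cells, *Grik1* at 9771 CPM in OFF cone bipolar cells against 62.0 in ON cone bipolar cells, and *Isl1* at 453 and 385 CPM in rod bipolar and ON cone bipolar cells against 4.48 in OFF cone bipolar cells. UMIs were summed per mouse and type, and every mouse had between 13 and 261 cells in each type. The control mouse S04 and the dKO mice S05 and S07 stood apart: rods made up 71.2% to 86.0% of their cells against 31.0% to 43.8% in the other 6 mice, their median depth was 4775 to 5412 UMIs per cell against 8118 to 10340.0, and they gave between 55 and 178 typed bipolar cells each, against 461 to 660. Results are therefore also given without these 3 mice where that changes them. No barcode triplet was shared between mice, but 5920 cells carried a barcode triplet that occurred in more than 1 of the 8 sublibraries.

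In the mouse genome (GRCm39, GENCODE M39) the members lie on 7 chromosomes. *Grm6* (chr11:50741512-50757035, plus strand) and *Gpr179* (chr11:97222935-97242903, minus strand) are on chromosome 11, *Gnao1* (chr8:94536594-94696016) and *Pcp2* (chr8:3673371-3675545) on chromosome 8, and *Gng13* (chr17:25936145-25938380) and *Rgs11* (chr17:26421904-26430829) on chromosome 17, 483523 bases apart. *Nyx* (chrX:13327355-13359058), *Lrit3* (chr3:129581530-129597679), *Lrit1* (chr14:36776787-36786903) and *Rgs7* (chr1:174885703-175320066) lie alone. For 5 members a protein-coding gene or a long noncoding RNA overlaps on the opposite strand over at least 2175 bases: *Gpr179* shares 9931 bases with *Mrpl45*, *Lrit3* 6416 with *Gm36130*, *Rgs11* 4857 with *Arhgdig*, *Gnao1* 3757 with *4930488L21Rik*, and *Pcp2* all of its 2175 bases with *Pet100*. Whether the counting used strand is not given in the sources used here, so reads of these pairs may not have been told apart.

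The 250 bases upstream of the annotated start are shown for 3 members that were higher in ON than in OFF bipolar cells (*Grm6*, *Nyx*, *Gpr179*) and for *Lrit1*, whose window holds a motif. They are RefSeq sequences of build GRCm38.p6, 5′ to 3′ on the strand of the gene, and *Rgs11* had no entry. Capitals mark TAATCC or its reverse complement GGATTA, the core bound by the bipolar and photoreceptor factors Otx2 and Crx, or the palindrome TAATTA, a core bound by many homeodomain factors. Both strands were searched and the motifs do not overlap.

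*Grm6*, chr11:50850435-50850684, plus strand: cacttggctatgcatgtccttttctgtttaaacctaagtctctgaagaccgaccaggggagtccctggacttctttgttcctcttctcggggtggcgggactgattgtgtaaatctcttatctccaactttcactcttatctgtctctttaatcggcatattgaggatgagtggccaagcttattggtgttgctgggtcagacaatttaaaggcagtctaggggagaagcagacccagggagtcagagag
*Nyx*, chrX:13460840-13461089, plus strand: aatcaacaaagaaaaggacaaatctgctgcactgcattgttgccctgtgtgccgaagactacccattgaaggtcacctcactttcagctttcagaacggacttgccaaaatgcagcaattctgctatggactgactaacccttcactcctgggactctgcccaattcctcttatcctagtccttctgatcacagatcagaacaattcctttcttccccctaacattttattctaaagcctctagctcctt
*Gpr179*, chr11:97352357-97352606, minus strand: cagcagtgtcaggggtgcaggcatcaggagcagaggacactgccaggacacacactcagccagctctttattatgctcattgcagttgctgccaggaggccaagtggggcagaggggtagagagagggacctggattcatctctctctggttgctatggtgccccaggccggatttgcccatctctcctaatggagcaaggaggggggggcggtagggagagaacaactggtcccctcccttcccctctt
*Lrit1*, chr14:37054580-37054829, plus strand: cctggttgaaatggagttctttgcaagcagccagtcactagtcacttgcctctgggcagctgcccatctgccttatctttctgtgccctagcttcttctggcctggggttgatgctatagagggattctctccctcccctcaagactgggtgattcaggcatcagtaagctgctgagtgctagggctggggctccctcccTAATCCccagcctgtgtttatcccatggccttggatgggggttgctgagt

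TAATCC was found upstream of 1 of the 9 members with an entry, *Lrit1*, where it begins 50 bases before the start, and upstream of 7.21% of all 27025 genes with a promoter entry. TAATTA was found upstream of 1 of the 9, at the third of 4 annotated starts of *Pcp2*, and upstream of 5.65% of all genes. The windows of *Grm6*, *Nyx* and *Gpr179* held neither run of letters.

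*Grm6*, the receptor itself, was present in rod bipolar and ON cone bipolar cells and near the level of non-bipolar cells in OFF cone bipolar cells. In rod bipolar cells it stood at 516, 470.4, 592 and 295 CPM in the control mice S01 to S04 and 260.4, 583, 489, 578 and 481 CPM in the dKO mice S05 to S09. In ON cone bipolar cells it stood at 466, 554, 494 and 325 CPM in the control mice S01 to S04 and 419, 524, 530.4, 422 and 434 CPM in the dKO mice S05 to S09. S04 and S05 were lowest in rod bipolar cells, and S04 was lowest in ON cone bipolar cells. In OFF cone bipolar cells the values were 4.74, 5.75, 3.63 and 0 CPM in the control mice S01 to S04 and 1.87, 5.18, 3.94, 6.16 and 3.84 CPM in the dKO mice S05 to S09, and none of the 9 mice came near the ON values. The 0 of S04 allows a level of up to 12.0 CPM in its pool (3 UMIs, counting error only). These were 108 *Grm6* UMIs in 1559 OFF cone bipolar cells, and the mean of 3.90 ± 1.95 CPM (SD, n = 9 mice) lay below the 13.2 CPM of rods and the 12.5 CPM of amacrine cells. *Grm6* was higher than in OFF cone bipolar cells in rod bipolar cells (log2 fold change 6.89 ± 0.13, adjusted p = 4.75e-24, edgeR, where ± gives the standard error of a fold change) and in ON cone bipolar cells (log2 fold change 6.74 ± 0.13, adjusted p = 2.69e-23, edgeR). Between rod bipolar and ON cone bipolar cells it did not pass the test (log2 fold change 0.15 ± 0.085, adjusted p = 0.163, edgeR), with rod bipolar cells higher in 5 of 9 mice. Without S04, S05 and S07 it was called higher in rod bipolar cells (log2 fold change 0.27, adjusted p = 0.00649), and leaving out S05 alone gave 0.21 (adjusted p = 0.0244, edgeR). At a common depth of 4000 UMIs, *Grm6* would be seen in 84.9% of rod bipolar and 74.0% of ON cone bipolar cells (98.8% and 91.3% at full depth). The same share was 1.59% in OFF cone bipolar cells, below the 2.5% of rods, which do not use the receptor (4.81% and 3.18% at full depth, at median depths of 14279 and 4713 UMIs). The 4000-UMI shares leave out 7 rod bipolar, 2 ON cone bipolar, 21 OFF cone bipolar and 5763 rod cells that were shallower.

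**Figure D1:**
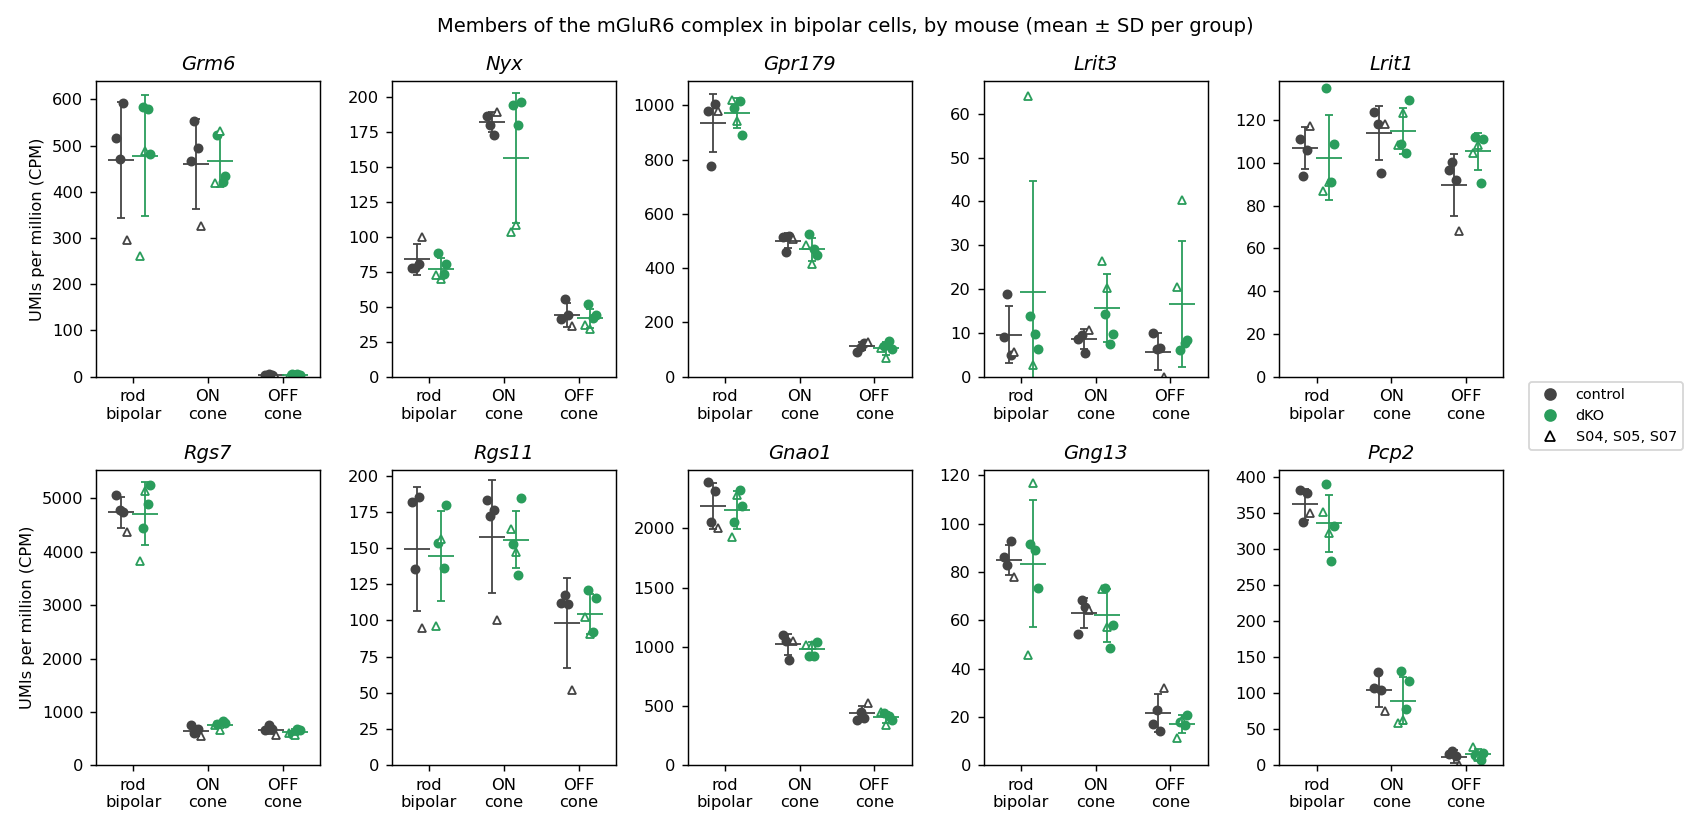
CPM of each member in rod bipolar, ON cone bipolar and OFF cone bipolar cells, with a point per mouse (control grey, dKO green, open triangles S04, S05 and S07) and bars for the mean ± SD of each group. *Grm6* lies between 260 and 592 CPM in both ON types and at or below 6.16 CPM in OFF cone bipolar cells, while the control and dKO points overlap for every member in every type.

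Across the whole complex, 9 of 10 members were called higher in rod bipolar than in OFF cone bipolar cells (edgeR, adjusted p below 0.05), where 24.8% of all 11395 genes tested were called higher and 26.4% lower. In ON cone bipolar cells 8 of 10 were called higher than in OFF cone bipolar cells, against 14.4% of all genes, and none lower, against 12.9%. The median log2 fold change of the members was 2.43 and 1.52 in these comparisons, beside 0.0089 and 0.0011 over all genes tested. With library sizes in place of TMM factors, the share of higher among all called genes moved from 48.5% to 34.6% for rod bipolar against OFF cone bipolar cells, and 8 of 10 members were called higher. Both comparisons share the OFF cone bipolar pools of the same 9 mice. Between rod bipolar and ON cone bipolar cells 5 members were called higher in rod bipolar cells (20.4% of all genes) and 1 was called lower (23.1%), with a members' median of 0.42 against 4.26e-04 over all genes (of all called genes 46.9% were higher, or 33.5% with library sizes).

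*Nyx* encodes nyctalopin, a leucine-rich repeat protein that holds TRPM1 at the dendritic tip. It stood at 186, 180.3, 173 and 189 CPM in the control mice S01 to S04 and 104, 194, 109, 180.1 and 196 CPM in the dKO mice S05 to S09 in ON cone bipolar cells. Its level was lower in rod bipolar cells, from 70.2 to 100.2 CPM, and lower again in OFF cone bipolar cells, from 33.9 to 56.0 CPM, and no 2 of the 3 ranges overlapped. It was the 1 member called lower in rod bipolar than in ON cone bipolar cells (log2 fold change -1.03 ± 0.075, adjusted p = 5.07e-12, edgeR). *Nyx* in OFF cone bipolar cells was still above its level in rods (4.49 ± 1.47 CPM) and amacrine cells (4.00 ± 1.97 CPM). In ON cone bipolar cells the dKO mice S05 and S07, at 104 and 109 CPM, lay below the other 7 mice.

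*Gpr179* encodes an orphan receptor that anchors the RGS proteins to the complex. In rod bipolar cells it stood at 979, 777, 1003 and 980.1 CPM in the control mice S01 to S04 and 1019, 991, 941, 1016 and 889 CPM in the dKO mice S05 to S09. The control mouse S02 was lowest and the other 8 mice lay between 889 and 1019 CPM. Its mean of 955 ± 78.1 CPM in rod bipolar cells stood above 483 ± 37.6 CPM in ON cone bipolar cells (log2 fold change 1.07 ± 0.071, adjusted p = 7.05e-13, edgeR) and 108 ± 19.4 CPM in OFF cone bipolar cells (SD, n = 9 mice each). Outside bipolar cells it was highest in Müller glia, at 68.2 ± 21.3 CPM against 20.4 CPM in rods. The share of Müller glia with a *Gpr179* UMI at 4000 UMIs was 17.8%, against 6.05% of amacrine cells and 24.4% of OFF cone bipolar cells (43.4%, 20.6% and 42.2% at full depth, with median depths of 14881, 23866.5 and 14279 UMIs).

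*Lrit3* and *Lrit1*, which encode leucine-rich repeat proteins of the same synapse, did not follow the receptor. *Lrit3* is known to be supplied by photoreceptors and is needed for TRPM1 to reach the tip. It was highest in cones, at 556 ± 55.4 CPM (range 445 to 618 CPM), then in RPE cells (202 ± 51.2 CPM, n = 7 mice with at least 10 cells), rods (114 ± 6.52 CPM) and Müller glia (112 ± 11.6 CPM). The RPE mean includes S07, at 314 CPM from 11 UMIs in 11 cells, against 168 to 204 CPM in the other mice. The ranges of cones and RPE cells overlapped with no other type, while rods and Müller glia overlapped. In the bipolar types it averaged only 11.8 to 15 CPM, and no comparison among them passed the test (adjusted p = 0.785 for ON against OFF cone bipolar cells, edgeR), although without S07 it was called higher in rod bipolar than in OFF cone bipolar cells (log2 fold change 0.67, adjusted p = 0.0240). *Lrit1* encodes a protein of the photoreceptor terminal. It stood at 104 ± 15.5 CPM in rod bipolar, 114 ± 10.9 CPM in ON cone bipolar and 98.2 ± 13.7 CPM in OFF cone bipolar cells, beside 152 ± 11.9 CPM in cones and 108 ± 13.6 CPM in rods, and at 4.09 to 8.99 CPM in the horizontal, amacrine, ganglion, Müller and RPE cells. The calls of *Lrit1* above OFF cone bipolar cells were small (log2 fold change 0.21 and 0.21, adjusted p = 0.0240 and 0.0383, edgeR). With library sizes in place of TMM factors neither held (0.085 and 0.19, adjusted p = 0.358 and 0.0584), and without S04, S05 and S07 the call in ON cone bipolar cells was lost (adjusted p = 0.0732). Leaving out S01, S03 or S06 alone ended the call in rod bipolar cells (edgeR adjusted p = 0.0655 to 0.172), and leaving out S01, S02, S04, S07, S08 or S09 alone that in ON cone bipolar cells (edgeR adjusted p = 0.0577 to 0.141).

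**Figure D2:**
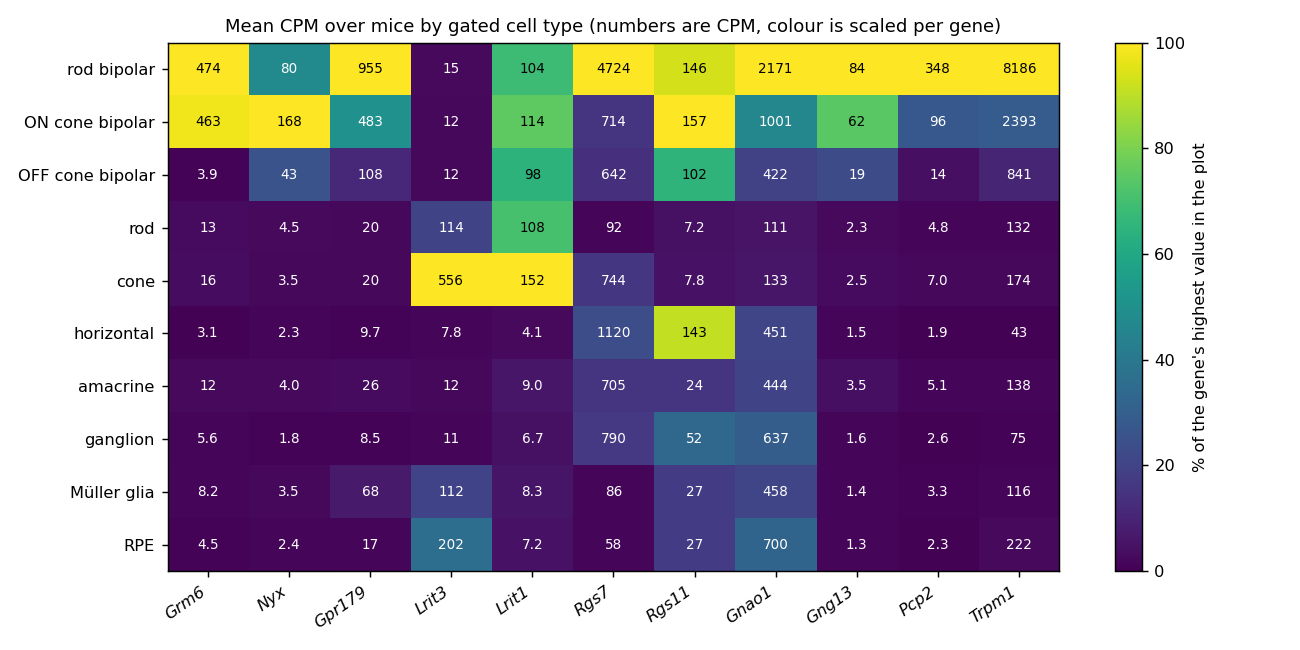
Mean CPM over mice of the members and *Trpm1* (columns) in 10 gated cell types (rows), with colour scaled to each gene's highest value. The ON bipolar rows hold the highest values of 8 of the 10 members and of *Trpm1*, whereas *Lrit3* and *Lrit1* are highest in cones, at 556 and 152 CPM.

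The RGS proteins, which speed the shut-off of Go and so the light response, differed from each other. *Rgs7* stood at 5064, 4780.1, 4741 and 4366 CPM in the control mice S01 to S04 and 3828, 4449, 5145, 4888 and 5257 CPM in the dKO mice S05 to S09 in rod bipolar cells. Every mouse was far above its ON cone bipolar value (543 to 836 CPM) and its OFF cone bipolar value (567 to 749.9 CPM). It was higher in rod bipolar than in ON cone bipolar cells (log2 fold change 2.82 ± 0.076, adjusted p = 9.80e-21, edgeR), whereas ON against OFF cone bipolar cells did not pass the test (log2 fold change 0.17 ± 0.072, adjusted p = 0.0820) and ON cells were higher in 7 of 9 mice. Without S02 that difference was called (log2 fold change 0.20, adjusted p = 0.0395, edgeR). *Rgs7* was also found in horizontal cells at 1120.5 ± 141 CPM (n = 7 mice), ganglion cells at 789.7 ± 51.2 CPM, cones at 744 ± 62.9 CPM and amacrine cells at 705 ± 23.3 CPM. *Rgs11* did not pass the test between rod bipolar (146 ± 34.4 CPM) and ON cone bipolar cells (157 ± 27.6 CPM), with a difference of 0.042 (95% interval -0.11 to 0.19 on the log2 scale). The sign of this fitted difference is opposite to that of the means, and rod bipolar cells were higher in 4 of 9 mice. It was higher in both than in OFF cone bipolar cells (log2 fold change 0.62 ± 0.072, adjusted p = 8.79e-08 for ON, edgeR), although the ranges over mice overlapped. Outside bipolar cells *Rgs11* reached 143 ± 23.2 CPM in horizontal cells (n = 7 mice), against 7.15 CPM in rods and 24.2 CPM in amacrine cells.

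Of the G protein genes, *Gnao1*, the alpha subunit of Go, stood at 2392, 2050.2, 2319 and 2005 CPM in the control mice S01 to S04 and 1928, 2055, 2277, 2326 and 2188 CPM in the dKO mice S05 to S09 in rod bipolar cells. Its means fell from 2171 ± 166 CPM in rod bipolar to 1001 ± 71.1 CPM in ON cone bipolar and 422 ± 53.8 CPM in OFF cone bipolar cells, with no overlap between the 3 ranges. The log2 fold changes were 1.22 ± 0.079 for rod bipolar against ON cone bipolar and 1.28 ± 0.081 for ON against OFF cone bipolar cells (edgeR, adjusted p = 4.99e-13 and 6.13e-13). The OFF cone bipolar level was close to that of amacrine (444 ± 15.2 CPM) and horizontal cells (451 ± 28.8 CPM). Ganglion cells stood higher, at 577 to 720 CPM over mice, as did RPE cells, at 543 to 810 CPM. Rods (82.2 to 151 CPM) and cones (96.9 to 178 CPM) stood lower.

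*Gng13*, the gamma subunit, stood at 86.3, 83.0, 92.6 and 78.0 CPM in the control mice S01 to S04 and 45.7, 91.5, 117, 89.2 and 73.4 CPM in the dKO mice S05 to S09 in rod bipolar cells. S05, with 15 rod bipolar cells, was lowest and S07, with 32, was highest. *Gng13* followed the order rod bipolar, ON cone bipolar (62.5 ± 8.53 CPM) and OFF cone bipolar cells (19.1 ± 5.98 CPM), and was at 1.27 to 3.47 CPM in rods, cones, horizontal, amacrine, ganglion, Müller and RPE cells. *Pcp2* encodes a modulator of Go activity and is best known from cerebellar Purkinje cells. It stood at 382, 338, 378 and 351 CPM in the control mice S01 to S04 and 352, 391, 322, 283 and 332 CPM in the dKO mice S05 to S09 in rod bipolar cells, from 59.6 to 131 CPM in ON cone bipolar cells and from 0 to 26.1 CPM in OFF cone bipolar cells (0 in S04 only, which allows up to 12.0 CPM), with no overlap between the 3. After *Grm6* it had the widest difference between rod bipolar and OFF cone bipolar cells among the members (log2 fold change 4.74 ± 0.13, adjusted p = 6.29e-21, edgeR).

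Another 12 genes of the cascade and of its partners at the synapse were read from a list chosen with earlier results of these data known. Of the 8 genes listed as postsynaptic, 4 were called higher in rod bipolar than in OFF cone bipolar cells and 1 was called lower. The other 3 did not pass the test, and the same counts held for ON against OFF cone bipolar cells. Of all genes, 24.8% were called higher and 26.4% lower in the former comparison and 14.4% and 12.9% in the latter. Between rod bipolar and ON cone bipolar cells 1 was called higher (*Trpm1*), 1 lower (*Gpr158*) and 6 did not pass the test, where 20.4% and 23.1% of all genes were called higher and lower. *Trpm1*, the channel, stood at 8186 ± 801 CPM in rod bipolar, 2393 ± 145 CPM in ON cone bipolar and 841 ± 134 CPM in OFF cone bipolar cells (log2 fold change 3.40 and 1.54 against OFF cone bipolar cells, edgeR). Its OFF cone bipolar level was above every non-bipolar type, which lay between 42.7 (horizontal cells) and 222 CPM (RPE cells) among the 7 types compared. *Trpm1* is also the host gene of Mir211, 1 of the loci floxed in all 9 mice. *Gnb3*, the beta subunit of Go, was near 368 CPM in both ON types and at 33.3 CPM in OFF cone bipolar cells (log2 fold change 3.44 for ON against OFF). It was higher still in cones, at 760 to 925 CPM over mice. *Gnb5* and *Rgs9bp*, partners of the RGS proteins, were called higher in both ON types than in OFF cone bipolar cells. In rod bipolar, ON and OFF cone bipolar cells *Gnb5* averaged 254, 289 and 120 CPM, and *Rgs9bp* 64.3, 73.6 and 49.7 CPM. Both were higher in rods, at 866 to 1393 and 432 to 597 CPM over mice. The part of rod RNA in their bipolar levels was not tested. *Gpr158*, an orphan receptor related to *Gpr179*, was lower in rod bipolar (-1.79) and ON cone bipolar cells (-0.35) than in OFF cone bipolar cells. *Lrit2*, *Rgs6* and *Dag1* passed neither test (adjusted p of *Rgs6* 0.0507 and 0.0964, edgeR). *Dag1* averaged 38.0, 39.6 and 40.7 CPM in rod bipolar, ON and OFF cone bipolar cells. It stood at 47.1 to 62.0 CPM in rods and 69.0 to 80.6 CPM in cones over mice. *Lrit2* averaged 51.4, 46.6 and 43.7 CPM in the same bipolar types and stood at 75.9 to 122 CPM in rods. A place of these genes on the bipolar side was thus taken from the list only. Of the 4 genes listed for the photoreceptor side, *Elfn1*, an mGluR6 binding partner, was called higher in both ON types and *Egflam*, the ligand of dystroglycan, in neither. *Cacna2d4* was called higher and *Cacna1f* lower in rod bipolar than in OFF cone bipolar cells, with log2 fold changes of 0.35 and -0.44, and against ON cone bipolar cells they were called the same way (0.24 and -0.47). *Elfn1* stood at 24.3, 26.5 and 19.5 CPM in rod bipolar, ON cone bipolar and OFF cone bipolar cells and at 322 CPM in rods, and the part of rod RNA in its bipolar levels was not tested.

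Over 12 gated types, the 5 genes outside the lists and markers whose mean log2(CPM + 1) correlated best with *Grm6* were *Gm12660* (Pearson r = 0.970), *Zfp879* (0.961), *Igfn1* (0.958), *Gm10287* (0.951) and *Cdc25c* (0.932), among 13895 genes with at least 10 CPM in 1 type. The 12 points come from the same libraries. *Gm12660* overlaps *Grm6* on the opposite strand over 1251 bases and may hold the same reads. *Igfn1* stood at 199 CPM in rod bipolar, 296 in ON cone bipolar and 7.21 in OFF cone bipolar cells. Among the members, *Pcp2* (0.949, rank 5) and *Gng13* (0.880, rank 26) were most like *Grm6* and *Lrit3* least (0.00439, rank 6829).

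The averages over ON and OFF cone bipolar cells hid large differences between subtypes. The 4068 bipolar cells were clustered without the members into 19 clusters, of which 5 with raised rod markers (372 cells) were set aside, leaving 1 rod bipolar, 7 ON and 6 OFF clusters. The values below are descriptions without a test, since cells that cluster together share their expression. Among the 7 ON clusters *Gpr179* was even, at 448 to 623 CPM. *Grm6* ran from 25.5 to 878 CPM, *Rgs7* from 86.6 to 2812 CPM, *Pcp2* from 1.82 to 259 CPM and *Trpm1* from 49.5 to 4969 CPM.

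An ON cluster of 80 cells from 8 mice, marked by *Lrrtm1* (129 CPM), *Kcng4* (111 CPM) and *Cabp5*, was almost without *Grm6*. Only 5 of its 80 cells had a *Grm6* UMI, and 22 of the 26 UMIs came from a single cell of S03. The cluster stood at 25.5 CPM, or 4.74 CPM without S03, against 276 to 878 CPM in the other 6 ON clusters, where 91.9% to 99.1% of cells had a UMI. Other parts of the complex were there: *Gpr179* stood at 595 CPM, *Nyx* at 128 CPM, *Trpm1* at 1456 CPM with a UMI in all 80 cells, and *Rgs7* at 2812 CPM, the highest of the ON clusters. *Pcp2*, at 22.5 CPM, and *Gng13*, at 38.2 CPM, lay near the low end of the ON clusters. Those ran from 1.82 to 259 CPM and from 35.9 to 83.6 CPM. *Isl1*, the ON marker, was at 303 CPM. *Gnb3*, at 176 CPM, and *Rgs11*, at 46.0 CPM, were lower there than in the other ON clusters. The median depth was 12634 UMIs per cell, within the 11419 to 18272 of the other ON clusters.

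Another ON cluster, of 173 cells from all 9 mice with moderate *Prkca* (704 CPM) and *Cabp5* (736 CPM), had the receptor but little channel. *Grm6* was seen in 159 of the 173 cells, at 297 CPM, and *Trpm1* in 62, at 49.5 CPM, which is below the 132 CPM of rods. The other 6 ON clusters had 872 to 4969 CPM of *Trpm1*, and at least 99.4% of the cells of each had a UMI. In the 8 mice with at least 5 of its cells, *Trpm1* ranged from 36.0 to 113 CPM and *Grm6* from 206 to 373 CPM. *Trpm1* was among the genes that could shape the clusters, whereas *Grm6* was not.

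Other members also differed between ON clusters. In the *Cck* and *Vsx1* cluster (304 cells) *Grm6* was highest, at 878 CPM, and *Pcp2* was nearly absent, at 1.82 CPM (8 UMIs in all) against 22.5 to 259 CPM in the other ON clusters. *Rgs7* was at 86.6 CPM in the cluster with *Prkca* but without *Cabp5* (174 cells), against 235 to 2812 CPM in the others. *Nyx* was highest in that same cluster and in the *Kcng4* and *Cabp5* cluster, at 323 and 352 CPM, against 106 to 174 CPM in the other ON clusters.

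The OFF clusters differed as well. The cluster of *Neto1*, *Tacr3* and *Vsx1* (353 cells) held *Nyx* at 109.8 CPM, *Gpr179* at 274 CPM, *Rgs11* at 223 CPM, *Gng13* at 37.0 CPM and *Trpm1* at 1775 CPM, while *Grm6* stood at 4.81 CPM. Its *Nyx* and *Rgs11* levels lay within the range of the ON clusters and its *Gpr179* below it. In the other 5 OFF clusters *Nyx* was at 5.80 to 53.6 CPM and *Gpr179* at 16.8 to 238 CPM, the upper value belonging to the *Tacr3* and *Cabp5* cluster, which also had *Rgs11* at 175 CPM. These 2 clusters overlapped over mice: *Gpr179* ranged from 186 to 369 CPM in the *Neto1* cluster and from 126 to 286 CPM in the *Tacr3* and *Cabp5* cluster, and *Rgs11* from 64.4 to 278 CPM and from 156 to 196 CPM. The *Grik1*, *Cabp5* and *Scgn* cluster (218 cells) had *Rgs11* at 2.61 CPM, 8 UMIs in all, against 46.0 to 223 CPM in the other OFF clusters, and the highest *Rgs7* and *Pcp2* of the OFF clusters, at 1489 and 89.5 CPM. *Grm6* was at 2.61 to 24.5 CPM in all 6.

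**Figure D3:**
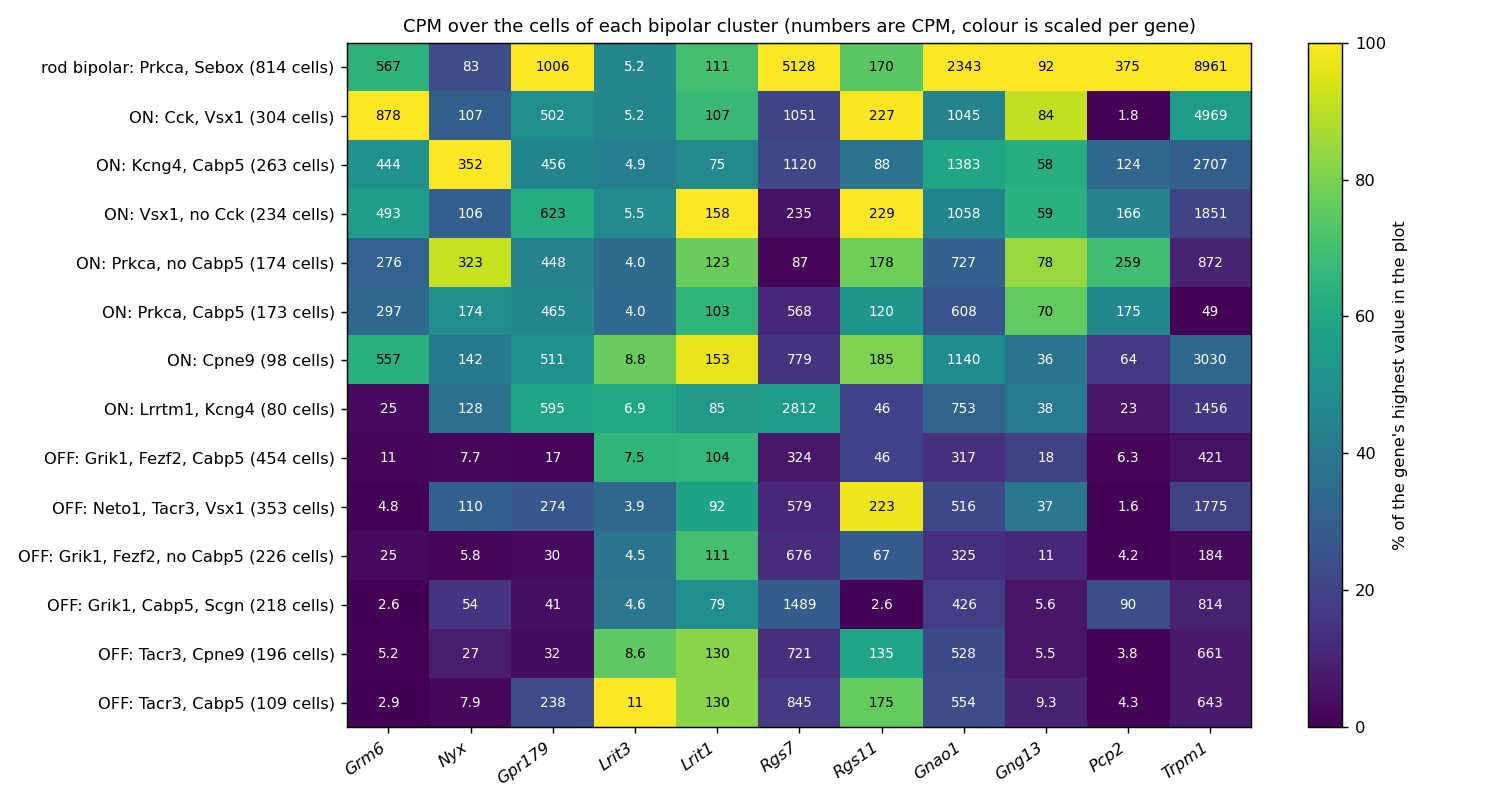
CPM of the members and *Trpm1* (columns) over the cells of 14 bipolar clusters made without the members (rows, named by marker genes), with colour scaled to each gene's highest value. The *Lrrtm1* cluster stands out among ON clusters by *Grm6* at 25.5 CPM, the *Prkca* and *Cabp5* cluster by *Trpm1* at 49.5 CPM, and the *Neto1*, *Tacr3* and *Vsx1* cluster has the highest *Nyx* (109.8 CPM) and *Trpm1* (1775 CPM) of the OFF clusters.

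The dKO mice were then compared with the control mice within each type. The question was whether the members' RNA levels differed where the deletion of the miRs was targeted to the RPE. All 10 members passed the filter on low counts in every comparison. None was called in rod bipolar, ON cone bipolar, OFF cone bipolar or amacrine cells (edgeR), and 0.0% of all genes tested were called in each of the 4 comparisons. Genes at an unadjusted p below 0.05 numbered 159 of 10181 in rod bipolar, 426 of 10945 in ON cone bipolar, 304 of 11927 in OFF cone bipolar and 306 of 15449 in amacrine cells, and DESeq2 and limma-voom called 0 genes in each as well (70 and 202 at an unadjusted p below 0.05 in rod bipolar cells, 278 and 401 in ON cone bipolar, 141 and 331 in OFF cone bipolar and 158 and 360 in amacrine cells). The members' median log2 fold change was -0.017 in rod bipolar, -0.056 in ON cone bipolar and -0.088 in OFF cone bipolar cells, beside 0.00977, 0.00680 and 0.00788 over all genes.

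*Grm6* averaged 468 ± 126 CPM in control and 478 ± 131 CPM in dKO rod bipolar cells (SD, n = 4 and 5 mice), and 459.7 ± 96.9 CPM and 466 ± 56.1 CPM in ON cone bipolar cells. The 95% intervals of the dKO effect were -0.41 to 0.44 and -0.31 to 0.28 on the log2 scale. *Gpr179* and *Gnao1* had the narrowest intervals in rod bipolar cells, -0.15 to 0.26 and -0.24 to 0.18, and *Rgs7* and *Pcp2* spanned -0.25 to 0.23 and -0.35 to 0.11. In ON cone bipolar cells *Rgs7* was 651 ± 92.3 CPM in control and 764 ± 67.0 CPM in dKO mice, with an interval of -0.018 to 0.44, and *Nyx* had an interval of -0.56 to 0.21. *Nyx* was low there only in the dKO mice S05 and S07, at 104 and 109 CPM. S06, S08 and S09 stood at 194, 180.1 and 196 CPM, against 173 to 189 CPM in the control mice. In amacrine cells the log2 fold changes of the members lay between -0.35 (*Gng13*) and 0.51 (*Lrit1*), and none was called.

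*Lrit3* had the largest fitted change of the members in ON cone bipolar cells, 0.77 (interval 0.0028 to 1.54, edgeR adjusted p = 0.9997). It stood at 8.57, 9.45, 5.43 and 10.7 CPM in the control mice S01 to S04 and 26.5, 14.2, 20.3, 7.35 and 9.78 CPM in the dKO mice S05 to S09. S05 and S07 were highest, and the other dKO mice overlapped the controls. The summed level of the 5 rod markers moved with it: 1310.3 and 1425 CPM in the ON cone bipolar pools of S05 and S07, against 225 to 700.4 CPM in the control pools and 262 to 477 CPM in the other dKO pools, with all 5 markers detected. Their part in the result was not tested. Without S04, S05 and S07 the change was 0.44. In OFF cone bipolar cells the fitted change of *Lrit3* was 0.87 (interval -0.21 to 1.95), and -0.078 without those 3 mice. *Rgs9bp* had changes of 0.64 in ON and 0.47 in OFF cone bipolar cells, and 0.33 in ON cone bipolar cells without the 3 mice. The listed genes *Egflam* and *Elfn1* of the photoreceptor side had changes of 1.28 and 1.05 in the same pools, neither called, and 0.54 and 0.34 without those 3 mice. None of the 12 listed genes was called in any type, and *Trpm1* had log2 fold changes of -0.12, -0.12 and -0.18 in rod bipolar, ON cone bipolar and OFF cone bipolar cells, with intervals that all included 0.

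**Figure D4:**
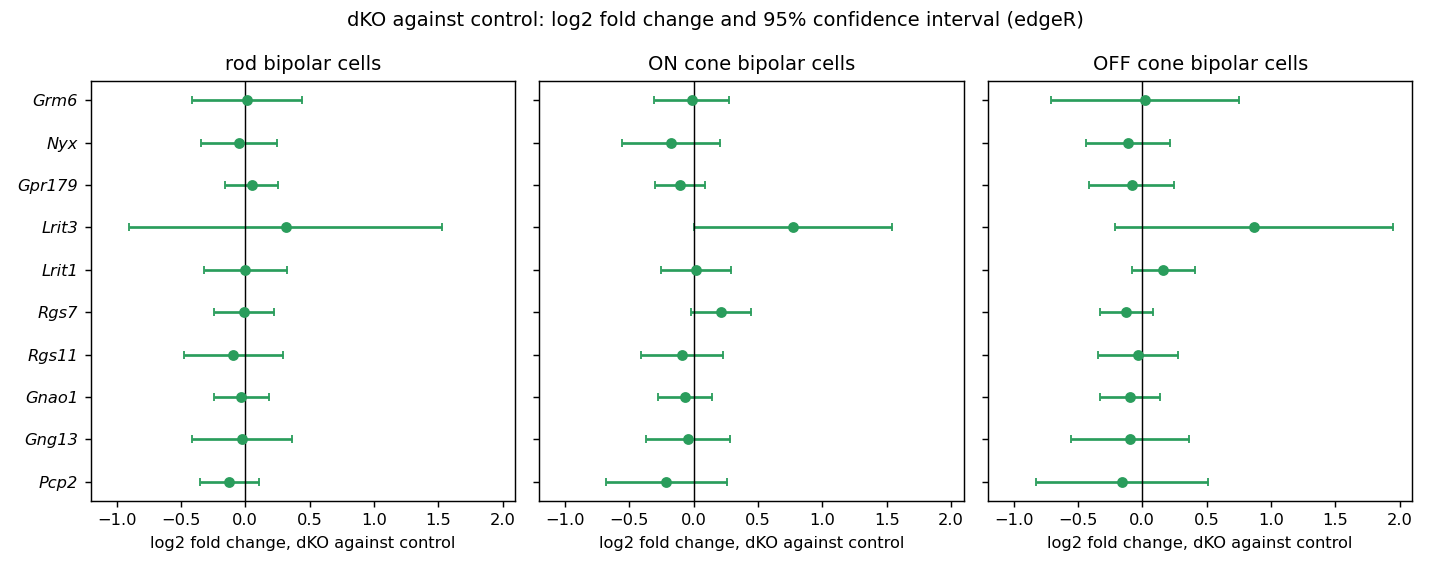
Log2 fold change of each member in dKO against control mice, with its 95% confidence interval from edgeR, in rod bipolar, ON cone bipolar and OFF cone bipolar cells. Apart from *Lrit3* in ON cone bipolar cells, whose interval begins at 0.0028, every interval includes 0.

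None of the 3 shares of the typed bipolar cells passed the test between the groups. Rod bipolar cells were 24.6 ± 3.65% of the typed bipolar cells in control and 22.0 ± 4.43% in dKO mice (SD, n = 4 and 5, two-sided exact permutation test, adjusted p = 0.643 over 3 shares). ON cone bipolar cells were 34.2 ± 2.83% and 35 ± 2.59%, and OFF cone bipolar cells 41.1 ± 4.88% and 43.1 ± 2.46% (exact permutation test, adjusted p = 0.714 and 0.643). Without S04, S05 and S07 the difference, dKO minus control, turned from -2.68 to 0.142 percentage points for rod bipolar and from 1.94 to -0.509 for OFF cone bipolar cells, where 3 against 3 mice cannot reach a p below 0.100. Without the control mouse S02 it was -4.20 points for rod bipolar, -0.163 for ON cone bipolar and 4.37 for OFF cone bipolar cells (exact permutation test, adjusted p = 0.214 for OFF). In all cells outside the 3 bipolar types, summed per mouse, none of the members passed the test (exact permutation test of log2(CPM + 1), adjusted p = 0.968 for each member, where the smallest unadjusted p that 4 against 5 mice allow is 0.0159). The sums include the 341 bipolar cells left without a type and 2454 cells assigned to no cell type, so they are not free of bipolar RNA. In these sums *Rgs7* averaged 402 ± 162 CPM in control and 417 ± 79.8 CPM in dKO mice and *Lrit3* 114 ± 9.47 and 108 ± 14.6 CPM. The share of rods in all cells ranged from 36.1% to 86.0% in control and from 31.0% to 77.5% in dKO mice, and its part in these sums was not tested.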

How the data were processed

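Retinas of 4 control and 5 dKO mice were dissociated and profiled by split-pool barcoding in 8 sublibraries. The authors mapped reads with split-pipe to GRCm39 and deposited raw UMI counts per gene and cell. The submitters' processing notes also name R 4.2.2 and Seurat 4.3.0. No per-sample column was left unused. The labels give S06 and S07 1 animal number between them. They were kept apart as mice, and an alternative summed them.

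Each cell was typed by UMIs of marker genes, none of them a member. A bipolar cell had at least 2 of 5 pan-bipolar markers, at least 3 UMIs and 3 UMIs per 10000 of them, and no other type's markers above its limit. No doublet caller was run. Rod bipolar cells needed 50 UMIs per 10000 of rod bipolar markers, OFF cone bipolar cells 8 per 10000 and 3 UMIs of OFF markers, and ON cone bipolar cells 2 UMIs of ON markers. These limits were set after the markers' levels were seen. Counts were summed per mouse and type (at least 10 cells) and tested with edgeR 4.0.16 (quasi-likelihood, TMM, filterByExpr, Benjamini-Hochberg over all genes, R 4.3.3). A gene was called at an adjusted p below 0.05. Standard errors are the log2 fold change over the root of F, and 95% intervals use the residual and prior degrees of freedom. Types were compared with the mouse as a block, since all 3 pools came from the same animals (their deviations correlated at 0.132 to 0.615 in 27 pairs over 5149 genes). Alternatives used DESeq2 1.42.0 and limma 3.58.1. The steps were also run on simulated data. For edgeR these were counts with a common dispersion and no differences in cell make-up between mice. They do not show how the fits behave on pools that differ in make-up. Clusters came from 20 principal components of 2000 variable genes other than the members (Leiden, resolution 1.0).

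Members and lists were chosen with earlier results of these data known. Named genes were all members, all 12 listed genes, the 5 genes most like *Grm6* and the gate markers. Clusters were singled out after their values were seen. Mice held 1620 to 4704 cells and 15079143 to 66528160.0 UMIs, and a pool as small as 13 cells limits its mouse's precision. CPM is not divided by gene length, so levels were not compared between genes. In summed pools, fewer cells of a type and less RNA per cell cannot be told apart.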

Additional observations from a re-analysis of the deposited data

Results flagged for a closer look

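A mouse was flagged where its value lay further from the rest of its group than Dixon's 95% limit for 4 or 5 samples allows. Of 86 groups examined, 8 were flagged, and chance flags about 1 in 20. Of the 8, 5 were in S04, whose pools held 13 rod bipolar, 21 ON and 21 OFF cone bipolar cells. In S04, *Nyx* in rod bipolar cells was 100.2 CPM against 77.5 to 80.3 CPM in the other controls. *Rgs11* in S04 was low in ON cone bipolar cells (100.1 CPM against 172 to 183) and in OFF cone bipolar cells (52.2 against 111 to 118). In amacrine cells of S04, *Nyx* was 7.84 CPM against 3.08 to 3.79, and *Gng13* was 14.1 CPM against 1.69 to 2.28. These 2 values rest on 5 and 9 UMIs in a pool of 29 cells. In S02, *Gpr179* in rod bipolar cells was 777 CPM against 979 to 1003, and OFF cone bipolar cells made up 48.4% of the typed bipolar cells against 38.2 to 39.5%. In S05, *Lrit3* in rod bipolar cells was 64.0 CPM, read from 15 cells, against 2.60 to 14 CPM in the other dKO mice.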

How the results depend on the processing

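Of 1349 values of the members' fold changes under the alternatives, 16 lost a call, 8 gained one and none reversed a called direction. All 16 lost calls were of *Lrit1* against OFF cone bipolar cells, and the gained calls were of *Lrit3* (1), *Rgs7* (4) and *Grm6* (3). Of 881 values never past the threshold, 92 had another sign than the reported one. *Rgs7* was called higher in ON than in OFF cone bipolar cells with limma-voom (0.18), with types from clusters (0.26), without the 5% of cells with most UMIs (0.26) and without S02 (0.20). *Lrit3* was called higher in rod bipolar than in OFF cone bipolar cells without S07 (0.67). Leaving the mouse out of the fit as a block took the call from *Lrit1* in both comparisons with OFF cone bipolar cells (0.20 and 0.21) and changed no other call of a member. With library sizes in place of TMM factors the median of all genes moved to -0.12 for rod bipolar against OFF cone bipolar cells and to -0.11 against ON cone bipolar cells. For dKO against control, the count of genes called rose from 0 without a filter on low counts, to 54 in rod bipolar, 204 in ON cone bipolar, 63 in OFF cone bipolar and 3 in amacrine cells, to 12 in amacrine cells without S04, S05 and S07, and, leaving out each mouse, ranged from 0 to 1 in ON cone bipolar cells; the cause was not tested, and no member was among them. Pools of 13 to 42 cells in S04 and S05 limit the precision of every dKO effect.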
